A study of Oryza sativa with 27 samples.

Results

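The comparison asks at which loci the effect of metcamifen on rice cells differed between 90 and 30 min after dosing. For each locus it is the log2 difference of metcamifen from DMSO at 90 min minus the same difference at 30 min. A positive value is called more positive at 90 min, whether the locus rose further above DMSO or left a level below it. The comparison uses 12 of the 27 libraries of the series, with 3 in each of 4 groups, and the 45866 of 46102 table rows that carry a LOC_Os identifier.

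The groups were suspension cells of Oryza sativa cultivar Tsukinohikari 90 min after metcamifen at a final 5 µM, cells 90 min after DMSO alone, cells 30 min after the same metcamifen dose, and cells 30 min after DMSO alone. DMSO was the carrier, so cells of all 4 groups received it. Libraries were made from polyA RNA, and the series also holds libraries at 240 min and another compound, cyprosulfamide. The cells were 5 days old and came from a suspension culture of a single cultivar, without the organs of a whole plant, and no cell type markers could be matched to the identifiers. The labels call the libraries biological replicates without saying whether they came from separate flasks, so p-values measure the spread between these libraries only.

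Metcamifen is a herbicide safener, a compound given with a herbicide to protect the crop. Safeners are known for raising transcripts of detoxification in cereals, among them glutathione transferases and cytochrome P450s, glycosyltransferases that attach sugars to foreign molecules, and transporters that move the conjugates out of the cytosol. Such transcript responses can come in waves, with early regulators followed by later enzymes, which is what a comparison of early times can separate. The count table gives identifiers without gene names, so no role is assigned to a locus here and the loci are described by their levels.

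The 12 libraries held between 7271070 counts (metcamifen, 30 min, replicate 1) and 26134612 counts on LOC_Os rows, and 26388 loci passed the filter on low counts. Principal components were taken over these 12. Scores on component 1, with 31.5% of variance, ran from 38.8 to 47.8 in metcamifen libraries at 90 min, from -33.1 to -22.9 in DMSO libraries at 90 min, from 9.03 to 15.3 in metcamifen libraries at 30 min and from -33.6 to -25.9 in DMSO libraries at 30 min. On the second component (24% of variance), replicate 1 stood apart from replicates 2 and 3 in every group: below both in metcamifen, at -41.1 (90 min) and -11.8 (30 min), and above both in DMSO, at 41.6 (90 min) and 33.1 (30 min). Metcamifen replicate 1 at 30 min, the shallowest of the 12, also lay at -51.5 on the third component (11.6% of variance), where the other 11 libraries lay between -12.4 and 17.3. Counts without these libraries are given below.

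The metcamifen effect was more positive at 90 min at 408 loci and more negative at 48 (edgeR's quasi-likelihood test, Benjamini-Hochberg adjusted p under 0.05). These are 1.55% and 0.182% of the loci tested, and 1.73% together. The median change was 1.08 log2 units among the 408 loci (from 0.314 to 5.02) and -1.01 among the 48 (from -2.93 to -0.421), where the median over all tested loci was -0.00254. The change was at least 2-fold at 232 of the 408 loci, at least 4-fold at 49, at least 8-fold at 12 and at least 16-fold at 5. Among the 48 loci it was at least 2-fold at 25, at least 4-fold at 3 and at least 8-fold at 0.

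Pairing the 2 times within a treatment by replicate number is an assumption, and the results with a replicate block and by pair rest on it. With a block for every replicate number of each treatment, the test called 1484 loci (1233 more positive, 251 more negative), among them all 456 called without it. The 1028 loci called only with the block had smaller changes, with a median size of 0.72 log2 units against 1.07 for the 456. Leaving out both times of 1 replicate number lowered the count of 456 to 263 (metcamifen replicate 2), 286 (metcamifen replicate 3) and 290 (DMSO replicate 2). It was 315 without metcamifen replicate 1, 366 without DMSO replicate 1, and 469 without the shallow metcamifen library at 30 min alone.

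**Figure D1:**
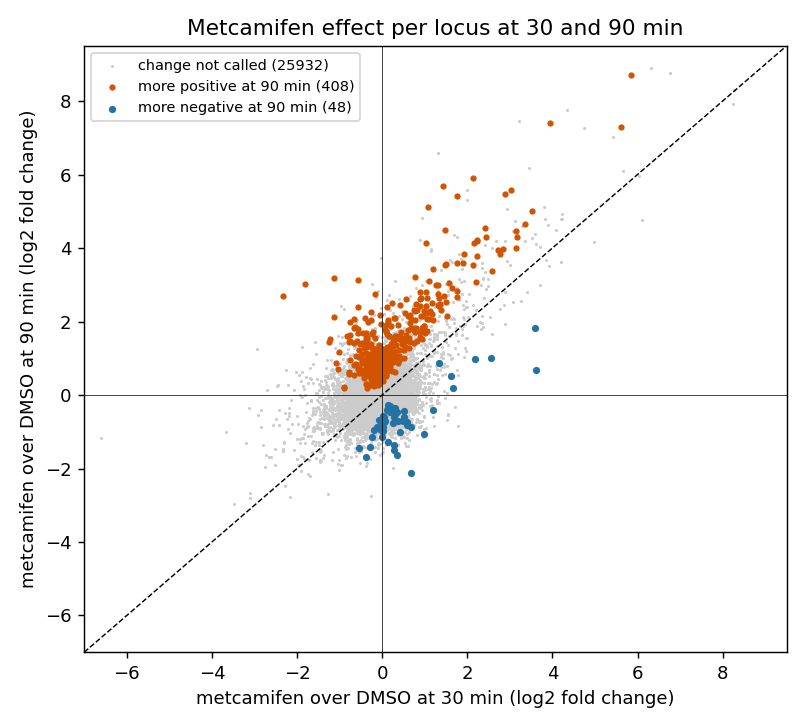
Each point is a locus, with the log2 fold change of metcamifen over DMSO at 30 min on the x axis and at 90 min on the y axis; the dashed line marks equal effects. The 408 loci in orange, called more positive at 90 min, lie above the line, and the 48 in blue, called more negative, lie below it.

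Most of the 408 loci were called above DMSO at 90 min only. At 285 of them metcamifen raised the level at 90 min and no difference was called at 30 min. A further 103 were raised at both times, with the larger effect at 90 min. Another 6 were raised at 90 min and lowered at 30 min, 3 were lowered at 30 min only, and 11 were called at neither time. The median effect of the 408 loci was 1.17 log2 units at 90 min and 0.0131 at 30 min. At 30 min the members went both ways, with 208 above 0 and a range of -2.34 to 5.86. In the whole table, metcamifen raised 4.6% and lowered 1.41% of loci at 90 min, and raised 1.17% and lowered 0.182% at 30 min. The change was tested on these same libraries, so the shares of the 408 and the 48 in these lists are a description.

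The 48 loci were mostly ones called below DMSO at 90 min. At 33 of them the level was below DMSO at 90 min only, and 1 was lowered at both times. At 4 the level was raised at 30 min only, at 4 it was raised at both times with the smaller effect at 90 min, and 6 were called at neither time. Their median effect was -0.718 at 90 min and 0.277 at 30 min.

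A call at 1 time and none at the other did not by itself show a changed effect. Of the 923 loci raised at 90 min and not at 30 min, the change passed its own test at 291 (31.5%), and 632 did not pass. The median change over all 923 loci, passed or not, was 0.73 log2 units. Of the 359 loci lowered at 90 min and not at 30 min, 33 (9.19%) passed. Of the 19 raised at 30 min and not at 90 min, 4 passed (21.1%). Among the 291 loci raised at both times, 103 had a more positive effect at 90 min and 4 a more negative one, with a median effect of 2.07 at 90 min and 1.44 at 30 min.

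The time change within each treatment shows where the levels moved. Under metcamifen 1163 loci were higher and 251 lower at 90 min than at 30 min, 4.41% and 0.951% of those tested. In DMSO 36 were higher and 28 lower, 0.136% and 0.106%. Without the replicate block, 384 of the 408 loci were higher at 90 min under metcamifen with no call in DMSO, 6 were higher under metcamifen and lower in DMSO, 2 were higher in both, 2 were lower in DMSO only and 14 had neither call. Of the 48 loci, 34 were lower at 90 min under metcamifen with no call in DMSO, 2 were higher in DMSO only and 12 had neither call. The median time change of the 408 loci was 0.949 log2 units under metcamifen and -0.0834 in DMSO, and that of the 48 was -0.749 under metcamifen and 0.376 in DMSO. With the replicate block, 2740 loci changed over time under metcamifen and 453 in DMSO (145 higher, 308 lower), against 1414 and 64 without it. A fit to the compared libraries alone called 2138 under metcamifen and 13 in DMSO. With 1 library left out, the metcamifen count was between 860 and 1281. It was lowest without replicate 2 (860) or replicate 3 (906) at 30 min. The DMSO count was between 28 and 42 for each of its 6 libraries left out in turn.

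**Figure D2:**
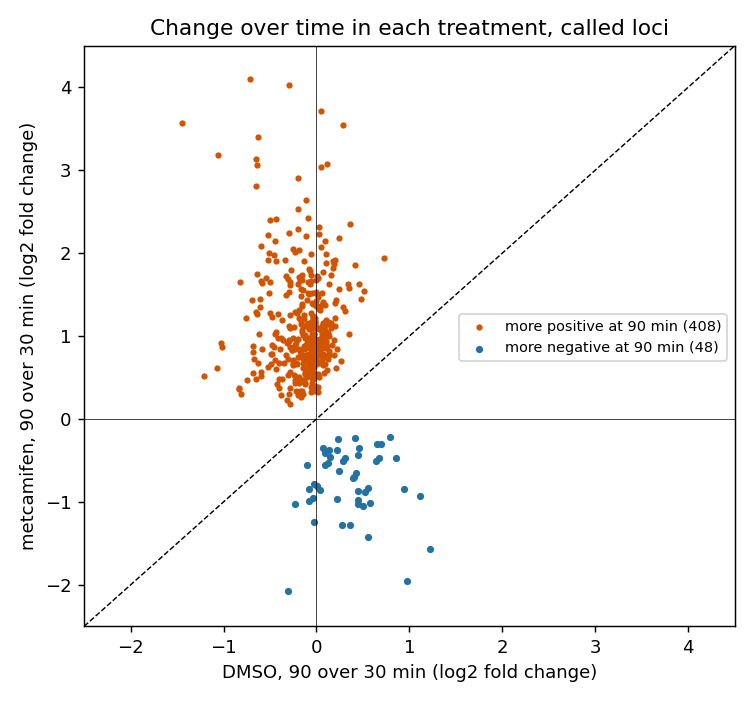
Time change of the 456 called loci, 90 over 30 min in log2 units, in DMSO on the x axis and under metcamifen on the y axis; the dashed line marks equal change. The loci in orange (408, more positive) all lie above 0 on the metcamifen axis with a median of 0.949, and those in blue (48, more negative) all lie below 0 with a median of -0.749.

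The loci were called on these same libraries, so the direction of the medians in each replicate number follows largely from that choice and is a description. Over the 408 loci, the median change of log2 CPM (CPM divides each count by its library's effective size, the total times its TMM factor) from 30 to 90 min was 0.932, 0.969 and 0.936 in metcamifen replicates 1, 2 and 3, and -0.0764, -0.0527 and -0.122 in DMSO replicates 1, 2 and 3. Over the 48 loci it was -0.617, -0.669 and -0.673 under metcamifen and 0.392, 0.209 and 0.211 in DMSO. At each of the 408 and the 48 loci, the 3 metcamifen changes did not overlap the 3 DMSO changes. That was so at 22.8% of all tested loci, and the test itself favours such loci.

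The counts held by these loci give the size of the change in the RNA pool. Since the loci were called on these libraries, the direction between 90 and 30 min follows from that choice and is a description. The 408 loci held 4.95%, 4.93% and 4.89% of the counts on tested loci in metcamifen libraries at 90 min, against 1.7%, 1.81% and 1.8% in DMSO libraries at that time. At 30 min they held 2.52%, 2.42% and 2.45% under metcamifen, against 1.73%, 1.86% and 1.86% in DMSO. The metcamifen and DMSO libraries did not overlap at either time. At 240 min the 408 loci held 3.1%, 3.01% and 2.99% under metcamifen, against 1.63%, 1.74% and 1.86% in DMSO, so the metcamifen share was below that of 90 min and above that of 30 min. The 48 loci held 0.128%, 0.142% and 0.141% under metcamifen at 90 min, against 0.222%, 0.207% and 0.204% in DMSO. At 30 min they held 0.192%, 0.217% and 0.219% under metcamifen, against 0.184%, 0.191% and 0.196% in DMSO, where the groups overlapped. CPM are shares of a bulk library, so a change in the RNA of each cell and a change in the number of cells that express a locus cannot be told apart.

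**Figure D3:**
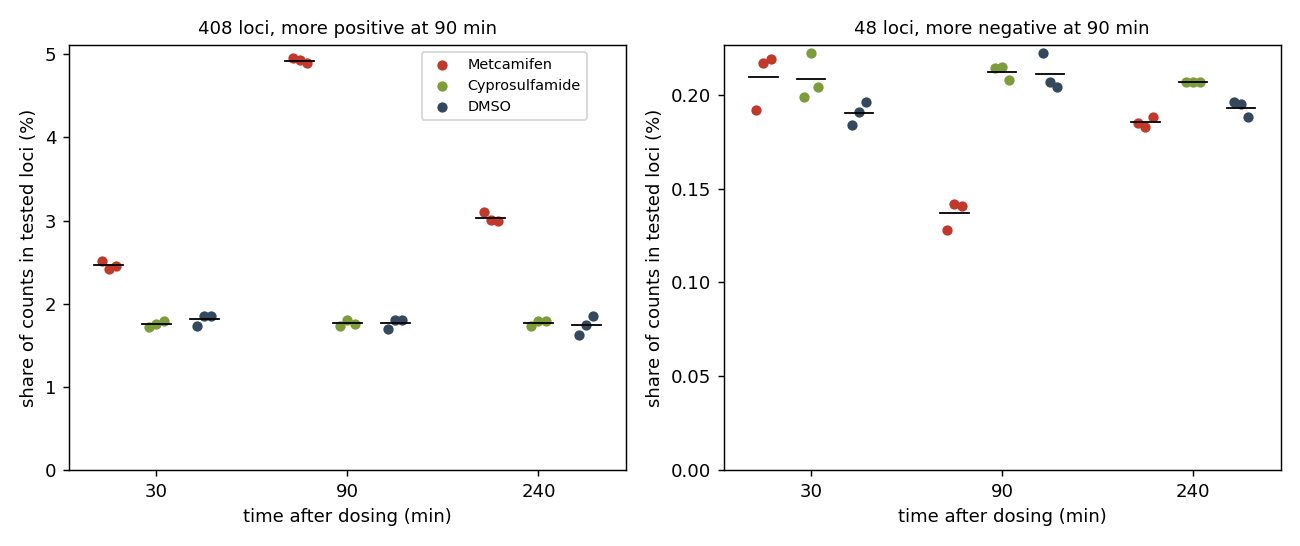
Share of counts on tested loci, in percent, held by the 408 loci (left) and the 48 loci (right) in each library, by time after dosing in min; points are libraries, lines are means over 3. Metcamifen libraries at 90 min hold 4.89% to 4.95% on the left, above every other group, and 0.128% to 0.142% on the right, below every other group.

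Called loci were found at all levels of expression, and more often at high ones. The test called 0.242% of the 3309 loci with a mean under 1 CPM over the 12 libraries, 1.38% of the 8651 loci from 1 to 10 CPM, 2.12% of the 11985 loci from 10 to 100 CPM and 3.07% of the 2443 loci from 100 CPM upwards. The median size of the called change was 2.48, 1.49, 0.918 and 0.929 log2 units in the same order. Under 1 CPM the median rests on 5 loci called more positive and 3 called more negative. The median level was 30.1 CPM among the 408 loci and 10.9 CPM among the 48, against 12.5 CPM over all tested loci. None of the 456 was without counts in any of the 4 groups, and 1 had between 1 and 3 counts in a group.

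By the chromosome in their identifiers, the 408 loci lay on all 12 chromosomes, from 1.03% of the tested loci of chromosome 8 to 1.86% of those of chromosome 3. Of the 408, 41 stood next to another of them in identifier order, in 20 runs, and the longest run held 3 loci, on chromosome 5. None of the 48 stood next to another of the 48. No such count was made for other sets of loci, so these numbers are a description and show no clustering by themselves.

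Named loci were taken from the called loci with a mean of at least 1 CPM, at least 10 pooled counts in each of the 4 groups and no overlap of the metcamifen and DMSO changes. That left 401 of the 408 and 45 of the 48. As the identifiers carry no names, at most 2 in each direction are named for each of 3 comparisons, which are the change of effect and the time change within each treatment. Reads shared with near-identical copies, or with overlapping or antisense neighbours, make the level of any named locus uncertain, since how they were counted is not given in the sources.

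LOC_Os06g44010 had the largest positive change among these 401 loci. It stood at 9.55, 6.35 and 5.91 CPM under metcamifen at 90 min, against 0.0538, 0.96 and 1.38 CPM in DMSO. At 30 min it stood at 0.995, 0.384 and 0.259 CPM under metcamifen, against 0.257, 1.08 and 1.65 CPM in DMSO. Only the metcamifen libraries at 90 min were high, and the other 3 groups overlapped. The change of effect was 4.32 log2 units (SE 1.04, adjusted p = 0.0278 in edgeR), with an effect of 3.18 at 90 min (SE 0.632, adjusted p = 0.0015) and -1.14 at 30 min (SE 0.835, adjusted p = 0.832). Its level under metcamifen also rose over time by 4.02 log2 units (SE 0.713, adjusted p = 0.000582), among the 2 largest such rises of the 401. Of 26 alternative settings, 12 ended the call, and the adjusted p lay between 1.46e-06 and 0.169. They included the omission of DMSO replicate 2 or 3 at 30 min, DMSO replicate 1 at 90 min, metcamifen replicate 2 or 3 at 30 min, and metcamifen replicate 1 at 90 min.

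LOC_Os05g45100 had 23.5, 18.4 and 14.6 CPM under metcamifen at 90 min, against 0.0538, 0.6 and 0.442 CPM in DMSO. At 30 min it had 3.27, 1.69 and 1.76 CPM under metcamifen, against 0.616, 0.36 and 1.3 CPM in DMSO. Metcamifen libraries were above DMSO libraries at both times, by far more at 90 min. The change of effect was 4.25 log2 units (SE 0.732, adjusted p = 0.00119), with an effect of 5.69 at 90 min (SE 0.477, adjusted p = 3.82e-09) and 1.44 at 30 min (SE 0.486, adjusted p = 0.28, not past the threshold). The call held in all 26 alternative settings, with a change of 3.65 to 5.38.

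LOC_Os10g08540 shows a locus low in DMSO that was above DMSO at 30 min and further above it at 90 min. It had 1 of the 2 largest rises over time under metcamifen among the 401. It had 23.2, 21.1 and 17.3 CPM under metcamifen at 90 min, against 0.43, 0.6 and 0.387 CPM in DMSO. Its levels at 30 min were 1.71, 1.61 and 1.4 CPM under metcamifen, against 0.36, 0.421 and 0.589 CPM in DMSO. The groups did not overlap at either time, and the DMSO libraries of the 2 times overlapped. The effect was 5.43 log2 units at 90 min (SE 0.251, adjusted p = 4.85e-14) and 1.76 at 30 min (SE 0.301, adjusted p = 0.00069), a change of 3.67 (SE 0.439, adjusted p = 1.12e-05). The call ended only with all libraries thinned to the smallest total (adjusted p = 0.0804, from 6.97e-10 over the 26 settings).

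**Figure D4:**
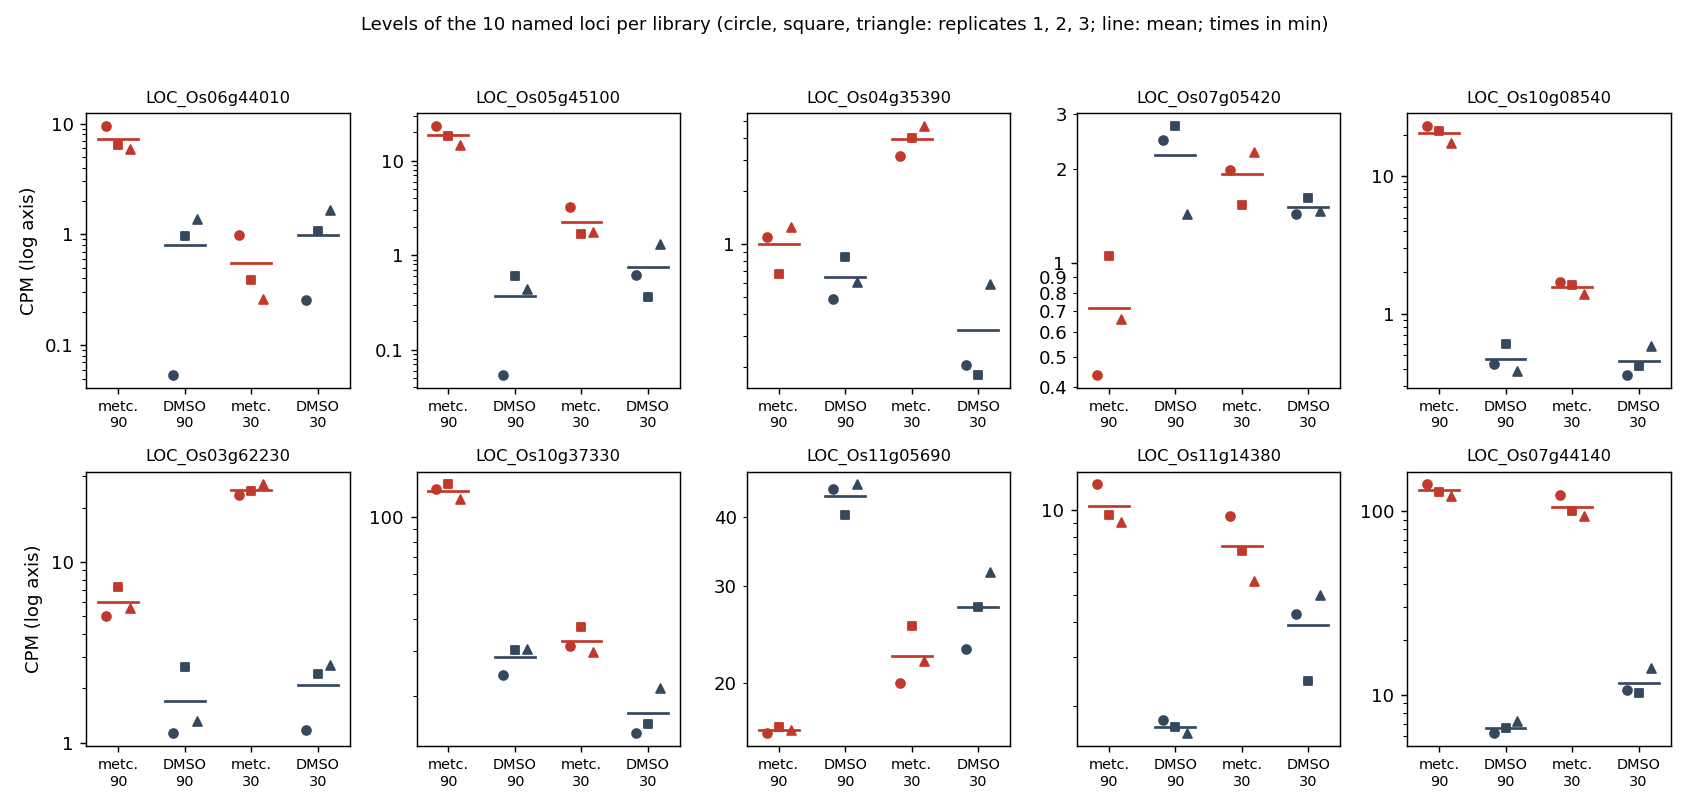
CPM of the 10 named loci in each of the 12 libraries, on a log axis whose range differs between panels; metcamifen and DMSO at 90 min stand left of metcamifen and DMSO at 30 min, symbols mark replicates 1 to 3, and lines are means over 3. In LOC_Os06g44010 the metcamifen libraries at 90 min (5.91 to 9.55 CPM) stand above all others, and in LOC_Os04g35390 and LOC_Os03g62230 those at 30 min do.

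LOC_Os04g35390 had the largest negative change of the 48 loci. Among the 4 groups, it was high only under metcamifen at 30 min. It had 1.09, 0.672 and 1.24 CPM under metcamifen at 90 min, against 0.484, 0.84 and 0.608 CPM in DMSO, so the groups overlapped. The 30 min levels were 3.13, 3.96 and 4.67 CPM under metcamifen, against 0.205, 0.18 and 0.589 CPM in DMSO, with no overlap. The effect was 0.68 log2 units at 90 min (SE 0.379, adjusted p = 0.463) and 3.61 at 30 min (SE 0.373, adjusted p = 4.08e-07), a change of -2.93 (SE 0.554, adjusted p = 0.00306). Under metcamifen it fell by 1.95 log2 units over time (SE 0.315, adjusted p = 0.000201). The call ended in 2 of 26 settings, with the libraries thinned (adjusted p = 0.0944) and without DMSO replicate 2 at both times (change -2.44, adjusted p = 0.0693), with adjusted p from 0.000463 upwards over the 26.

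LOC_Os03g62230 fell furthest of the 48 loci over time under metcamifen, by 2.08 log2 units (SE 0.249, adjusted p = 3.93e-06). It had 5.03, 7.32 and 5.58 CPM under metcamifen at 90 min, against 1.13, 2.64 and 1.33 CPM in DMSO. At 30 min it had 23.6, 24.7 and 27 CPM under metcamifen, against 1.18, 2.4 and 2.71 CPM in DMSO. Metcamifen libraries were above DMSO libraries without overlap at both times, and the gap was narrower at 90 min. The effect was 1.82 log2 units at 90 min (SE 0.29, adjusted p = 0.000111) and 3.59 at 30 min (SE 0.276, adjusted p = 2.61e-09), a change of -1.77 (SE 0.404, adjusted p = 0.0173). That call ended in 7 of 26 settings (adjusted p between 0.000438 and 0.749), which included the omission of DMSO replicate 2 at 90 min (change -1.32) and metcamifen replicate 1 at 90 min (change -1.67), and the thinning of all libraries, where the change was -0.92.

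LOC_Os07g05420 was below DMSO at 90 min only. It had 0.437, 1.05 and 0.661 CPM under metcamifen at 90 min, against 2.48, 2.76 and 1.44 CPM in DMSO. Its levels at 30 min were 1.99, 1.54 and 2.28 CPM under metcamifen, against 1.44, 1.62 and 1.47 CPM in DMSO. The groups overlapped at 30 min and not at 90 min. The effect was -1.64 log2 units at 90 min (SE 0.313, adjusted p = 0.000941) and 0.34 at 30 min (SE 0.287, adjusted p = 0.862), a change of -1.98 (SE 0.426, adjusted p = 0.0105). The call ended in 5 of 26 settings (adjusted p from 0.00312 to 0.15), among them the omission of metcamifen replicate 3 at 30 min (adjusted p = 0.0547).

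A few called loci also moved in DMSO. LOC_Os10g37330 had the largest called rise in DMSO among the loci open to naming, and rose further under metcamifen. It had 129, 135 and 118 CPM under metcamifen at 90 min, against 24.2, 30.4 and 30.6 CPM in DMSO. The 30 min levels were 31.5, 37.3 and 29.8 CPM under metcamifen, against 14.3, 15.5 and 21.5 CPM in DMSO. Metcamifen libraries were above DMSO libraries at both times. The time change was 1.95 log2 units under metcamifen (SE 0.13, adjusted p = 3.85e-10) and 0.73 in DMSO (SE 0.132, adjusted p = 0.0112), and the change of effect was 1.22 (SE 0.183, adjusted p = 0.000251).

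LOC_Os11g05690 rose in DMSO, and its fall under metcamifen passed the test only with the replicate block. It had 16.2, 16.6 and 16.4 CPM under metcamifen at 90 min, against 45, 40.4 and 46 CPM in DMSO. At 30 min it had 20, 25.4 and 21.9 CPM under metcamifen, against 23.1, 27.5 and 31.8 CPM in DMSO, where the groups overlapped. The time change was -0.47 log2 units under metcamifen (SE 0.146, adjusted p = 0.0647) and 0.68 in DMSO (SE 0.138, adjusted p = 0.0312). All 3 metcamifen pairs were lower at 90 min, and with the block the metcamifen change was -0.46 (SE 0.11, adjusted p = 0.00599 in edgeR). The change of effect was -1.14 (SE 0.201, adjusted p = 0.00149).

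LOC_Os11g14380 and LOC_Os07g44140 fell in DMSO, their rise under metcamifen passed the test only with the replicate block, and the effect of metcamifen at both was more positive at 90 min. LOC_Os11g14380 had 12.4, 9.63 and 9.09 CPM under metcamifen at 90 min, against 1.78, 1.68 and 1.6 CPM in DMSO. Its levels at 30 min were 9.52, 7.18 and 5.6 CPM under metcamifen, against 4.26, 2.46 and 5 CPM in DMSO. The groups did not overlap at either time. Its time change was 0.51 log2 units under metcamifen (SE 0.21, adjusted p = 0.205) and -1.21 in DMSO (SE 0.247, adjusted p = 0.0301), and the change of effect was 1.73 (SE 0.324, adjusted p = 0.00282). With the block the metcamifen rise was 0.5 (SE 0.157, adjusted p = 0.042 in edgeR), and it was seen in all 3 pairs.

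LOC_Os07g44140 was far above DMSO already at the early time. It had 141, 128 and 122 CPM under metcamifen at 90 min, against 6.19, 6.6 and 7.18 CPM in DMSO. The 30 min levels were 123, 101 and 94 CPM under metcamifen, against 10.7, 10.2 and 14 CPM in DMSO. The effect was 4.29 log2 units at 90 min (SE 0.144, adjusted p = 1.54e-16) and 3.18 at 30 min (SE 0.135, adjusted p = 5.99e-14). The change of 1.11 (SE 0.187, adjusted p = 0.000917) went with a fall in DMSO (log2 change -0.81, SE 0.143, adjusted p = 0.00895), and the log2 change of 0.31 under metcamifen did not pass (SE 0.12, adjusted p = 0.176). With the block that change was again 0.31 (SE 0.0797, adjusted p = 0.0107 in edgeR), and it was positive in all 3 pairs. The calls of LOC_Os10g37330, LOC_Os11g05690, LOC_Os11g14380 and LOC_Os07g44140 in the change of effect held in all 26 alternative settings.

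The libraries at 240 min are not in the contrast for the change of effect, but they share its fit, filter and estimate of spread. A fit to the 12 compared libraries alone called 487 loci, 395 of them among the 456. Same-numbered libraries within a treatment may also share a culture. Metcamifen raised 211 of the 408 loci at 240 min (51.7%) and lowered 2, where it raised 2.95% and lowered 1.64% of all tested loci. Over 30, 90 and 240 min, the median effect of the 408 loci was 0.0131, 1.17 and 0.505 log2 units. Of the 48 loci, 7 were lowered at 240 min (14.6%) and 1 was raised, and over the same times their median effect was 0.277, -0.718 and -0.0675. LOC_Os10g08540 was still above DMSO at 240 min, at 5.98 ± 0.898 against 0.581 ± 0.236 CPM (SD, n = 3), a log2 difference of 3.37 (SE 0.247, adjusted p = 1.36e-09 in edgeR). LOC_Os06g44010 stood at 0.901 ± 0.623 under metcamifen at 240 min and 0.784 ± 0.791 CPM in DMSO (SD, n = 3; adjusted p = 0.907 in edgeR). LOC_Os03g62230 stood at 2.09 ± 0.431 under metcamifen and 2.13 ± 0.302 CPM in DMSO at that time (SD, n = 3; adjusted p = 0.962 in edgeR).

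**Figure D5:**
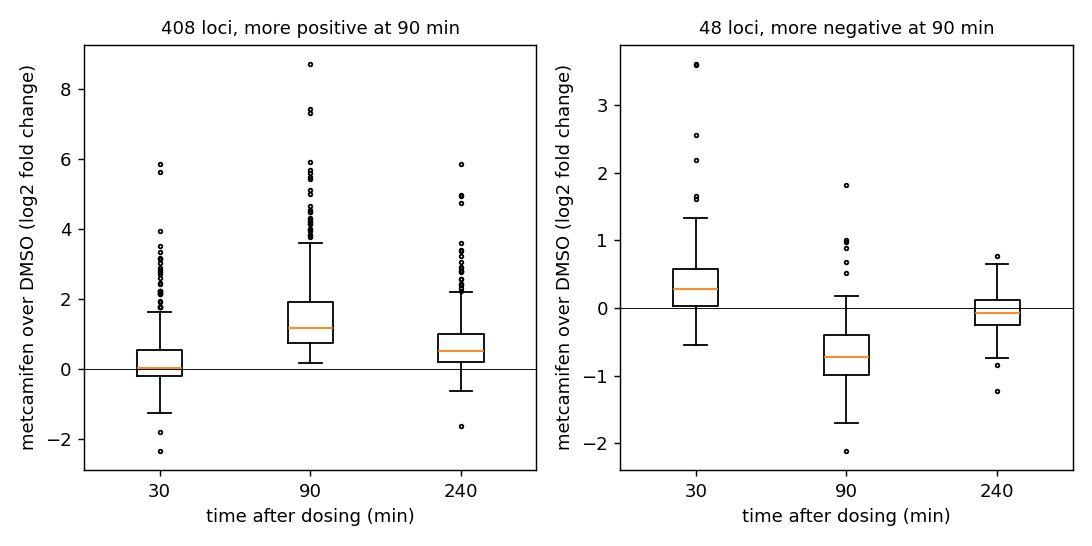
Log2 fold change of metcamifen over DMSO at 30, 90 and 240 min for the 408 loci (left) and the 48 loci (right); boxes span the quartiles with the median, whiskers reach the last locus within 1.5 times the box height, and points lie beyond. The medians are 0.0131, 1.17 and 0.505 on the left and 0.277, -0.718 and -0.0675 on the right; the loci were called on the libraries of 30 and 90 min.

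Cyprosulfamide is another safener, given at the same dose. Without the replicate block, its change of effect between 90 and 30 min was called at 0 loci by edgeR's quasi-likelihood test and at 0 by DESeq2. The block, which raised the metcamifen count, was not fitted for cyprosulfamide. Of 26388 loci tested, 637 had an unadjusted edgeR p under 0.05, against 2510 for the metcamifen change. The 637 are a share under 0.05, which is the share that such a threshold passes where no effect exists. The cyprosulfamide change uses the same DMSO libraries as the metcamifen change. The 408 and the 48 loci were chosen for their metcamifen change, so a larger median for metcamifen follows from that choice. The changes of the safeners were not tested against each other. The median change over the 408 loci was 1.08 log2 units for metcamifen and 0.0588 for cyprosulfamide, and over the 48 loci it was -1.01 and -0.199 in the same order. LOC_Os05g45100 had 0.417 ± 0.226 CPM under cyprosulfamide at 90 min and 0.664 ± 0.165 CPM at 30 min (SD, n = 3), with a change of effect of 0.43 log2 units (SE 0.88), where the metcamifen change was 4.25 (SE 0.732). LOC_Os04g35390 had 0.9 ± 0.39 CPM under cyprosulfamide at 90 min and 0.481 ± 0.0715 CPM at 30 min, with a change of effect of -0.08 (SE 0.572), where the metcamifen change was -2.93 (SE 0.554).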

How the data were processed

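The authors deposited 1 table of raw counts, in whole numbers without normalization, for each locus in each library. Each column was matched to a library by the description in the labels. GSNAP and edgeR are named in the submitters' processing notes, without versions. Genome build, annotation, use of strand and treatment of reads that match several loci: not given in the sources used here. The 236 rows without a LOC_Os identifier (0.093% to 0.132% of counts per library) were left out. A gene table of rice assembly ASM3414082v1 held 0 of the identifiers as written, and 1 with the LOC_ prefix removed, a locus not called here. The 18 gene lists drawn up by product name could therefore not be built.

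Loci were filtered with filterByExpr (minimum count 10, minimum total 15), scaled by TMM and fitted with edgeR 4.0.16 (R 4.3.3; glmQLFit, glmQLFTest) as 9 group means over 27 libraries, leaving 18 residual degrees of freedom. Contrasts were tested two-sided and adjusted over 26388 loci. The script was tested on simulated data. Each SE is the size of the log2 fold change divided by the square root of F. Log2 CPM used a prior count of 2. Alternatives were DESeq2 1.42.0, other size factors and filters, all rows, the compared libraries alone, thinning, blocks, and libraries left out singly or in pairs.

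Pairing was checked on deviations from the group mean at 15502 loci whose log2 CPM averaged over 3. Same-numbered libraries of 90 and 30 min correlated at 0.361 to 0.693 under metcamifen and 0.422 to 0.754 in DMSO. The block therefore takes numbers to pair the times. Differently numbered libraries were not correlated, so the pairing remains an assumption. Between treatments at one time, same-numbered libraries correlated at -0.771 to -0.292 and were not paired. The cause of these negative values was not tested. Within groups, counts of replicates differed by 2.98 to 20.9 times the sampling variance, so none was counted as a duplicate. Named loci follow the rule given with them. The comparison, its lists and that rule were chosen with earlier results of these data known.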

Additional observations from a re-analysis of the deposited data

Results flagged for a closer look

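The 456 loci of the change of effect stand out together, because the same contrast of metcamifen with DMSO differed between 2 times in the test of the difference itself. The 10 named loci stand out for the same reason, with a change of 4.32 log2 units at LOC_Os06g44010, 4.25 at LOC_Os05g45100, 3.67 at LOC_Os10g08540, 1.73 at LOC_Os11g14380, 1.22 at LOC_Os10g37330, 1.11 at LOC_Os07g44140, -1.14 at LOC_Os11g05690, -1.77 at LOC_Os03g62230, -1.98 at LOC_Os07g05420 and -2.93 at LOC_Os04g35390. Several of these rest on low counts. The first had 359 pooled counts under metcamifen at 90 min, 42 in DMSO at 90 min, 22 under metcamifen at 30 min and 51 in DMSO at 30 min. In DMSO at 30 min, LOC_Os04g35390 had 17 pooled counts and LOC_Os10g08540 had 24. LOC_Os05g45100 had 19 in DMSO at 90 min, and LOC_Os07g05420 had 36 under metcamifen at 90 min.

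A fit to all rows tested 88 that carry no LOC_Os identifier and are used in no comparison here, and 1 of them was called more positive at 90 min.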

How the results depend on the processing

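The count of 456 for the change of effect kept within 1.5 times under 22 of 26 alternatives. The others were the replicate block (1484) and 3 omissions of both times of 1 replicate number (263, 286 and 290). Over all 6 such omissions the count was 263 to 366. Single libraries left out gave 318 to 544, thinning to the smallest library 304 and DESeq2 600. The replicate block, which assumes that numbers pair the times, gave 2740 for metcamifen over time and 453 for DMSO over time. With it, all 10 named loci kept their call for the change of effect. Under metcamifen over time, 3 gained a call with it (LOC_Os11g05690, LOC_Os11g14380 and LOC_Os07g44140). The count of 1414 for metcamifen over time was 2138 from the compared libraries alone and 860 to 1281 with 1 library left out. The count of 64 for DMSO over time was 13 from the compared libraries alone, 119 in DESeq2 and 28 to 42 with 1 library left out. The cause of these shifts was not tested. Metcamifen against DMSO gave 284 to 347 calls at 30 min and 1165 to 1357 at 90 min with 1 library left out, and no alternative moved either by over 1.5 times. No named locus changed direction in any of 26 settings, and 5 of the 10 kept their call in all of them. Alternatives for cyprosulfamide and for 240 min were chosen after seeing the data, and gave 0 calls and 1121 to 1336. None of these used the replicate block. How depth bears on calls at each level was not tested.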
